A study of Homo sapiens with 6 samples.

Results

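The 10 genes described here encode receptors of the tumour necrosis factor (TNF) superfamily: the TWEAK receptor TNFRSF12A, with TNFRSF25, TNFRSF10A, TNFRSF10B, TNFRSF10D, TNFRSF1A, TNFRSF21, FAS, LTBR and NGFR. They were followed in SH-SY5Y, an established human line from a neuroblastoma that keeps traits of noradrenergic neurons, on 6 one-colour Affymetrix arrays of total RNA. Of these, 3 came from cultures given 100 µM manganese for 24 h, a dose stated in the labels to be the median lethal one divided by 5, and 3 from untreated control cultures. The medium of all cultures was a mixture of MEM and F12 containing 10% fetal bovine serum. Every probe set (a group of probes summarized to 1 value) annotated to exactly 1 gene symbol was taken if that symbol was among the 10. This gave 22 probe sets of the 49395 on the array and 10 genes of 18132. The genes were selected on results of the manganese comparison, in which TNFRSF12A was among the genes called and TNFRSF25 lay near the threshold. Their differences between manganese and control are therefore a description, and the adjusted p-values beside them come from the fit over the whole table.

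Receptors of this superfamily carry cysteine-rich repeats outside the cell and pass their signal through adaptor proteins inside it. Those with a death domain, which are TNFRSF1A, TNFRSF25, TNFRSF10A, TNFRSF10B, TNFRSF21, FAS and NGFR, can recruit death-domain adaptors and, for several of them, start caspase-dependent cell death. TNFRSF12A and LTBR have no death domain and bind TRAF adaptors, which lead to NF-kB and stress kinase signalling. TNFRSF10D is a decoy with a truncated death domain. In cells of the sympathetic lineage NGFR, the p75 neurotrophin receptor, binds neurotrophins.

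The arrays did not all stand alike. Spike-in RNAs with a poly(A) tail, put into each sample ahead of labelling, are read by 12 probe sets, which averaged between 7.80 and 7.91 on the log2 scale on the manganese arrays, against 6.14, 7.79 and 5.81 on controls 1, 2 and 3. Control 1 was also the array least like the others, with a Pearson correlation of 0.967 to 0.981 across genes. Differences against control 2 alone are therefore given beside those against all controls for the receptor genes tested and for the pathway lists. The label of the line was checked against 12 noradrenergic neuroblast markers, of which 11 were annotated, and all 11, among them PHOX2A, HAND2, GATA3, DBH and TH, lay above the 40th percentile of every array. Their mean was 10.98 to 11.09 on the manganese arrays and 11.17 to 11.28 on the controls. The 12 markers of a mesenchymal or Schwann-like state averaged 6.21 to 6.29 in manganese and 6.25 to 6.33 in control. Of these, 10, among them TWIST1, SNAI2 and FN1, also lay above the 40th percentile of every array. YAP1 and CD44 were below the 40th percentile on every array. The 5 annotated leukocyte markers averaged 3.77 to 3.92 in manganese and 3.75 to 3.83 in control. PTPRC, CD14 and LYZ were below that level throughout, and CD3E and ITGAM above it throughout. The 5 epithelial markers averaged 4.86 to 4.99 in manganese and 4.64 to 4.84 in control. EPCAM and CDH1 were below that level throughout, and KRT14 and KRT19 above it throughout. The noradrenergic mean was lower and the epithelial mean higher on every manganese array than on any control, but the members did not move together. Of the 11 noradrenergic markers 8 had negative and 3 positive differences, with STMN2 at -0.71, ISL1 at -0.58 and ELAVL4 at -0.50, and PHOX2A at 0.22 and TH at 0.12. Control 2 was the lowest control for STMN2 (11.87, against 11.39 to 11.73 in manganese) and for ISL1 (9.80, against 9.36 to 9.82). It was also the lowest for ELAVL4 (10.50, against 9.93 to 10.61). Of the 5 epithelial markers 3 were positive, with KRT19 at 0.50, while CDH1 was at -0.06 and KRT14 at -0.03. For KRT19 control 2 was the highest control, at 7.40, against 7.46 to 7.48 in manganese. The part of these markers in the results below was not tested.

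TNFRSF12A was higher in manganese and was the only member past the threshold. It encodes Fn14, a small receptor for the cytokine TWEAK that many cells raise after injury or growth factor stimulation. Its single probe set read 9.18, 9.33 and 9.26 on the 3 manganese arrays, against 7.47, 8.19 and 7.44 on the 3 control arrays. All manganese values lay above all control values, and the manganese arrays differed little among themselves while control 2 stood above the other controls. The mean was 9.26 ± 0.08 in manganese and 7.70 ± 0.43 in control (SD, n = 3 each). The log2 difference was 1.55, with a standard error of 0.20 and a 95% interval of 1.09 to 2.02, or 2.94-fold. Its limma adjusted p was 0.0444, and it stood 16th of 13407 genes by p. Bulk RNA cannot tell apart a change in the share of cells that express a gene from a change in RNA per cell.

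Control 2, whose spike-in level matched that of the manganese arrays, carried the smallest TNFRSF12A difference. Against it alone the difference was 1.06, with an adjusted p of 0.102. Without control 2 it was 1.80, with an adjusted p of 0.0018. The call was lost when any other single array was left out. The difference was then 1.44 without control 1 (adjusted p 0.0599), 1.42 without control 3 (0.299), 1.59 without manganese 1 (0.241), 1.52 without manganese 2 (0.228) and 1.55 without manganese 3 (0.288). The part of the spike-in level in the result was not tested.

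**Figure D1:**
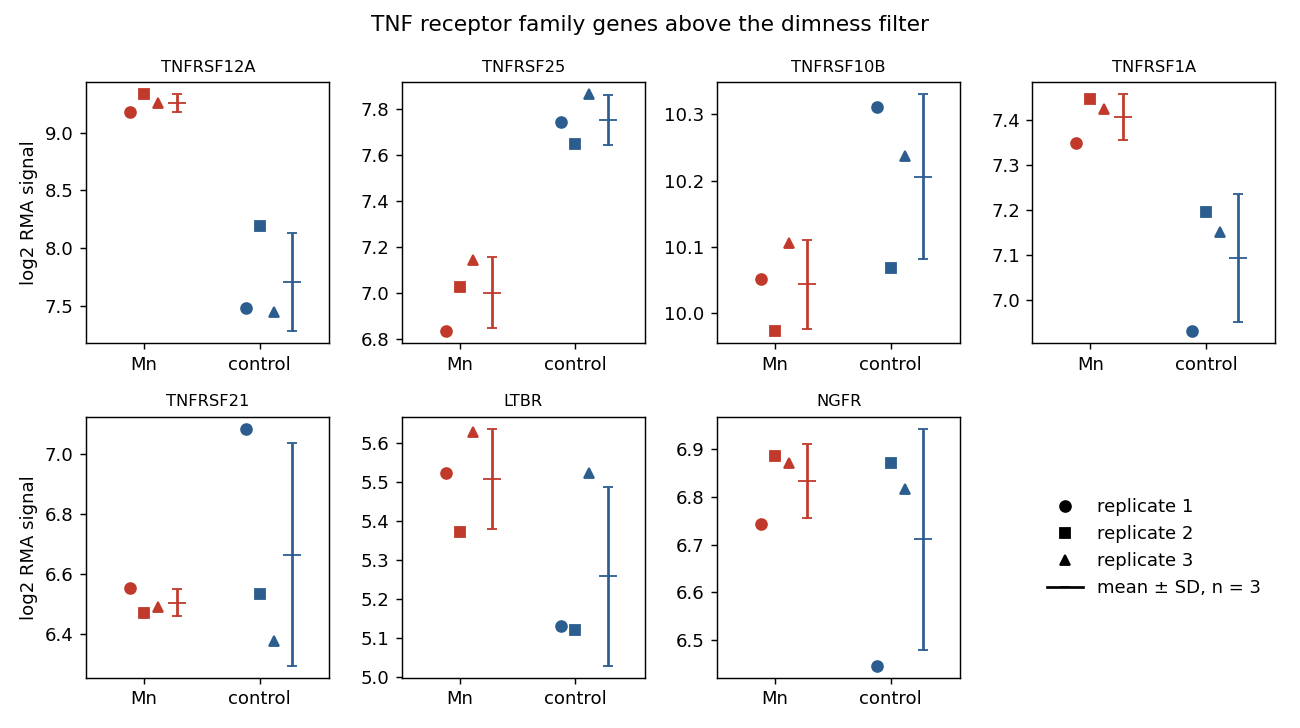
Log2 RMA signal of the 7 receptor genes above the dimness filter, each read by its brightest probe set, on the 3 manganese arrays (red, left) and the 3 control arrays (blue, right), with the mean ± SD of each group beside the points. TNFRSF12A lies at 9.18 to 9.33 in manganese and 7.44 to 8.19 in control. TNFRSF25 lies at 6.83 to 7.14 in manganese and 7.64 to 7.86 in control. Each panel has its own vertical range, and levels of different genes are not comparable on this array.

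The filter, which asks for a signal above the 40th percentile of the array on at least 3 of the 6 arrays, was passed by 16 of the 22 probe sets and by 7 of the 10 genes. All 16 lay above that percentile on all 6 arrays, so none passed through 1 group alone. TNFRSF10A, TNFRSF10D and FAS did not pass. Among the 7 genes tested, 1 was called at an adjusted p under 0.05, where the share over all genes was 0.142%. The groups did not overlap for 3 of the 7, TNFRSF12A and TNFRSF1A higher and TNFRSF25 lower, where the share over all genes was 19.8%. Since this contrast was used in choosing the members, nothing is read from either count. The 7 differences ran from -0.75 to 1.55 with a median of 0.12, and the median over all genes tested was 0.02.

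TNFRSF25 was lower in manganese and did not pass the threshold. It encodes DR3, the death-domain receptor for the cytokine TL1A. Its brighter probe set read 6.83, 7.03 and 7.14 in manganese, against 7.74, 7.64 and 7.86 in control. The groups did not overlap, and the gap between the highest manganese array and the lowest control was larger than the spread within either group. The means were 7.00 ± 0.16 in manganese and 7.75 ± 0.11 in control (SD, n = 3 each). The log2 difference was -0.75, with a standard error of 0.12, a 95% interval of -1.03 to -0.47 and a limma adjusted p of 0.107, and it was -0.64 against control 2 alone. The second TNFRSF25 probe set read 4.98, 5.07 and 4.74 in manganese and 4.98, 5.00 and 5.01 in control. The groups overlapped there, and the difference was -0.06 with a 95% interval of -0.33 to 0.21. Averaging both probe sets gave -0.41 for the gene, with an adjusted p of 0.182. The lower level was thus seen by 1 of the 2 probe sets, and the transcripts that each reads are not known here.

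TNFRSF1A, the main TNF receptor of most cells, differed by less and was read by 4 probe sets. The brightest read 7.35, 7.45 and 7.42 in manganese, against 6.93, 7.20 and 7.15 in control. All manganese values lay above all controls, by a small margin over control 2. The difference was 0.31 (95% interval 0.05 to 0.57), with a limma adjusted p of 0.334, and 0.21 against control 2. The other 3 probe sets gave 0.23, 0.17 and 0.21, each with overlapping groups. All 4 TNFRSF1A probe sets were positive, but 3 are of a type shared between transcripts or genes and may read the same RNA, so they are not 4 separate measurements.

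The windows upstream of the transcript start of TNFRSF25 and TNFRSF1A are shown because these are the members with non-overlapping groups for which the sequence table held an entry. They are taken from RefSeq (GRCh38.p14), 250 bases each, on the minus strand and written 5′ to 3′, at chr1:6466174-6466423 and chr12:6342077-6342326. Capitals mark the GC box, GGGCGG on either strand.
TNFRSF25: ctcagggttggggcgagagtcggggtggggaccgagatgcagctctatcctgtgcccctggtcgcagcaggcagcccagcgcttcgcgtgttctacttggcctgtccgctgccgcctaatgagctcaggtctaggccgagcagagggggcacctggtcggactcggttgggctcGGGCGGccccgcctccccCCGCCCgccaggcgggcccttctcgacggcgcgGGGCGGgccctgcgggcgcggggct
TNFRSF1A: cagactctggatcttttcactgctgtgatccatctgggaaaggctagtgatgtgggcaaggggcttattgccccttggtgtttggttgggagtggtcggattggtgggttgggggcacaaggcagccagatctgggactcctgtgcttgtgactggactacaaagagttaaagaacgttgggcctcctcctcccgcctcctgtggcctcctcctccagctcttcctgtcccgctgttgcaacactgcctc
The TNFRSF25 window held 3 GC boxes at a GC content of 73.6%, and the TNFRSF1A window held 0 at 56.8%. Over the 35116 windows of the same length 42.6% held at least 1 GC box, and the median GC content was 58%. Neither window held an AP-1 match (TGANTCA, in 6.57% of all windows), a cyclic AMP response element (TGACGTCA, in 1.65%) or a match to the NF-kB consensus (in 9.96%), searched on both strands. These matches describe letters in a window and carry no measurement of binding.

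TNFRSF21 and NGFR, death-domain receptors with roles in neurons, did not pass the threshold. At their brightest probe sets the signs of their differences turned without control 1. TNFRSF21, also called DR6, read 6.56, 6.47 and 6.49 at its brightest probe set in manganese, against 7.08, 6.54 and 6.38 in control. Control 1 alone stood high, and the groups overlapped. The difference was -0.16 (95% interval -0.57 to 0.25, limma adjusted p 0.726). It was 0.05 without control 1 and -0.03 against control 2 alone. A second TNFRSF21 probe set above the filter read 4.86, 4.51 and 4.83 in manganese and 5.67, 5.09 and 4.89 in control. Its groups did not overlap, at a difference of -0.48 (limma adjusted p 0.393 over probe sets) and of -0.36 against control 2 alone. The third was too dim for the filter.

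NGFR read 6.74, 6.89 and 6.87 in manganese, against 6.45, 6.87 and 6.82 in control. Control 1 was the lowest array, and the other 5 lay close together. The difference was 0.12 (95% interval -0.19 to 0.44, limma adjusted p 0.729), which turned to -0.01 without control 1 and to -0.04 against control 2 alone. Its other probe set gave -0.04. The interval leaves room for a difference of up to 0.44 on the log2 scale.

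LTBR, the lymphotoxin beta receptor that leads to non-canonical NF-kB signalling, read 5.52, 5.37 and 5.63 in manganese, against 5.13, 5.12 and 5.52 in control. The groups overlapped through control 3. The difference was 0.25 (95% interval -0.08 to 0.58, limma adjusted p 0.485), and 0.39 against control 2. The other LTBR probe set gave -0.10, in the opposite direction and also with overlapping groups.

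Of the members that are receptors for the death ligand TRAIL, only TNFRSF10B passed the filter. TNFRSF10B, also called DR5, is known as a target of the stress factor CHOP. Its brightest probe set read 10.05, 9.97 and 10.11 in manganese, against 10.31, 10.07 and 10.24 in control. The groups overlapped, with a difference of -0.16 (95% interval -0.42 to 0.09, limma adjusted p 0.549) and -0.03 against control 2. That probe set is of a type open to cross-hybridization. The other TNFRSF10B probe sets gave 0.07 and -0.01, with intervals of -0.36 to 0.51 and -0.34 to 0.32.

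The remaining members were dim. TNFRSF10A, also called DR4, read 3.57, 3.42 and 3.28 in manganese and 3.32, 3.29 and 3.33 in control, below the 40th percentile of every array. The decoy TNFRSF10D read 4.53, 4.38 and 4.43 in manganese, against 4.05, 4.23 and 4.29 in control at its brighter probe set. This set lay above that percentile on 2 arrays. The groups of TNFRSF10D did not overlap at either probe set, at differences of 0.26 and 0.14, but neither passed the filter. FAS, the receptor for FAS ligand, read 2.73, 2.75 and 2.73 in manganese and 2.65, 3.00 and 2.71 in control at 1 probe set. At the other it read 2.73, 2.71 and 2.65 in manganese and 2.66, 2.55 and 2.73 in control. All FAS values were below the 40th percentile, at differences of -0.05 and 0.05.

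**Figure D2:**
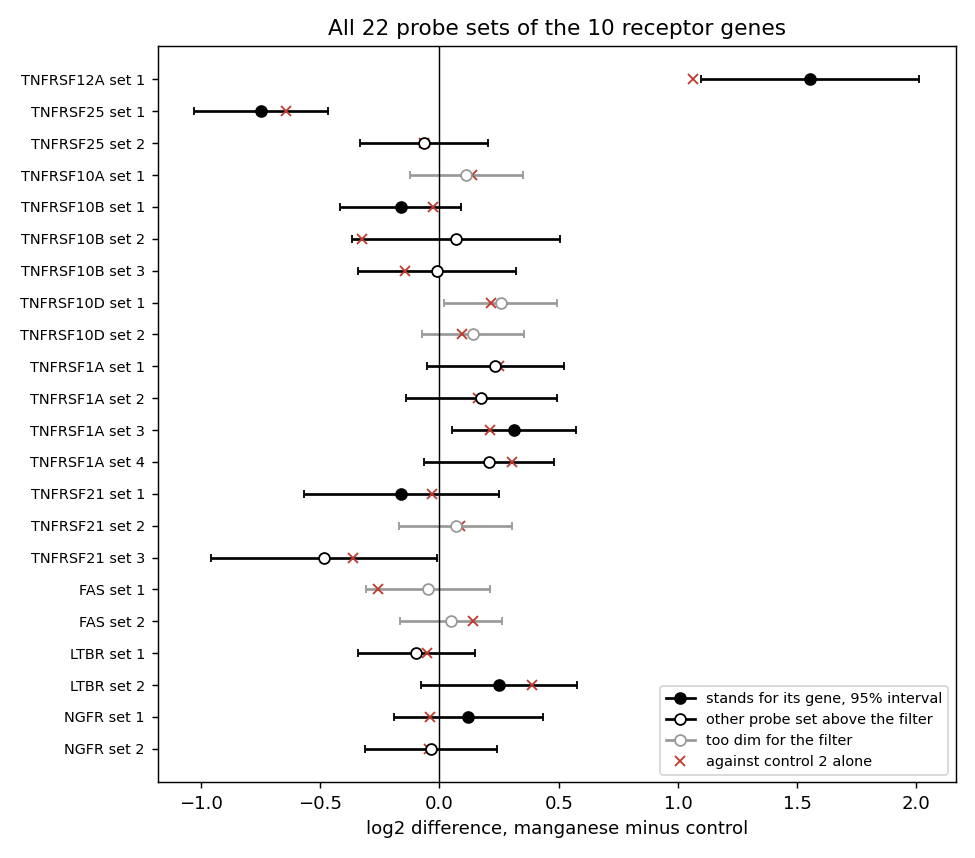
Log2 difference, manganese minus control, of all 22 probe sets with 95% limma intervals. Filled points stand for their gene, open points are other probe sets, grey ones are too dim for the filter, and red crosses give the difference against control 2 alone. TNFRSF12A is at 1.55, with its cross at 1.06, and the next furthest from 0 is the first TNFRSF25 probe set at -0.75.

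Over probe sets, 1 of the 16 members above the filter was called, that of TNFRSF12A, with an adjusted p of 0.0471 over 29871 probe sets, where the share over all was 0.107%. The groups did not overlap for 4 of the 16, where the share over all was 19%. Of the 16, 8 were positive and 8 negative. Probe sets of 1 gene disagreed in sign for TNFRSF10B, LTBR and NGFR among those above the filter.

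The genes nearest to TNFRSF12A in pattern were other genes that rose in manganese. Likeness was measured as the root mean square difference between log2 profiles over the 6 arrays, each centred on its own mean, so a small value means a similar change of similar size. The 5 nearest of 13407 were SPAG4, a SUN-domain protein, at 0.13, the histone gene H2AC20 at 0.18, the small Cajal body RNA SCARNA20 at 0.19, the water and glycerol channel AQP10 at 0.20 and the histone gene H2AC13 at 0.22. Histone genes have near-identical copies, so which copy H2AC20 and H2AC13 read is uncertain. The median over all genes was 0.82. All 5 were called, with differences between 1.44 and 1.77. In each of them control 2 was the highest control, as in TNFRSF12A. The genes were picked for a profile like that of TNFRSF12A, so these shared features follow from the choice. SPAG4 read 8.49, 8.40 and 8.48 in manganese and 6.76, 7.39 and 6.92 in control. Among the receptor genes TNFRSF1A was nearest at 0.65, and TNFRSF25 furthest at 1.19.

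**Figure D3:**
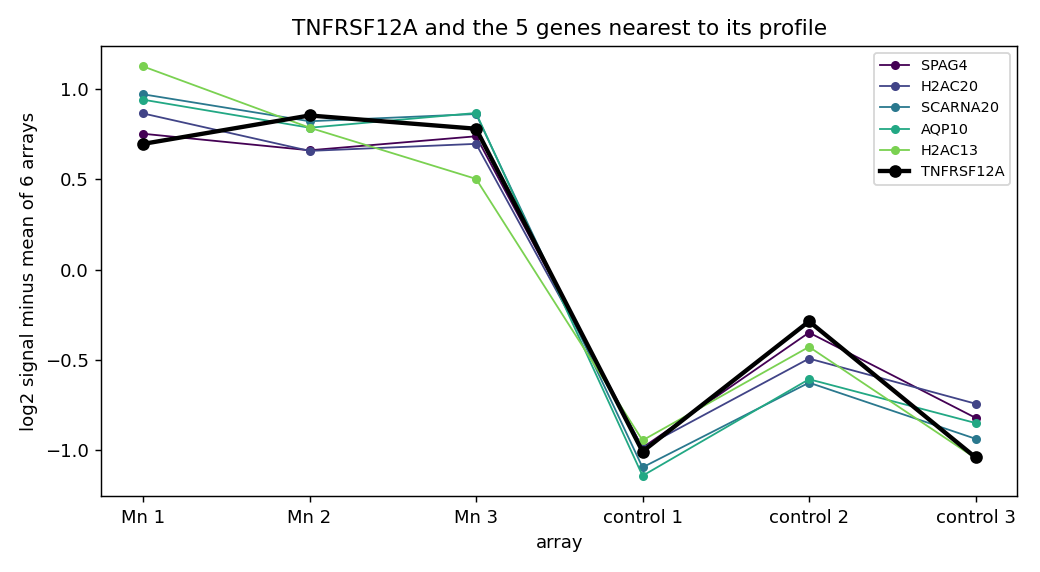
Log2 signal minus its mean over the 6 arrays for TNFRSF12A (black) and the 5 genes nearest to its profile, by array. All 6 are high on the manganese arrays, and on the control side each is highest on control 2. This likeness follows from the choice of genes by profile.

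The wider pathway was described through 6 lists of ligands, other receptors, adaptors, NF-kB components, NF-kB targets and regulators of death receptors. No gene of these lists passed limma's threshold over all genes. Positive differences, counted below for the lists, made up 54.1% over all genes tested. At an unadjusted p under 0.05, where the share over all genes was 12.8%, the counts were 1 of 9 ligands, 1 of 12 other receptors, 1 of 21 adaptors, 2 of 7 NF-kB components, 3 of 11 NF-kB targets and 1 of 4 regulators. The medians of the lists lay between 0.03 and 0.23, against 0.02 over all genes, and between -0.05 and 0.09 against control 2 alone, where 5 of the 6 were negative.

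Among the 9 ligands measured, 6 had positive and 3 negative differences, with a median of 0.05. TNF itself was at 5.99 ± 0.14 in manganese and 5.45 ± 0.25 in control (SD, n = 3 each). Its difference was 0.55 (limma adjusted p 0.260) and 0.25 against control 2, with groups that did not overlap. TNFSF9, the ligand of 4-1BB, differed by -0.14 and LTA, which encodes lymphotoxin alpha, by 0.12. TNFSF12, which encodes TWEAK and is named outside the rule as the ligand of TNFRSF12A, read 7.25, 7.12 and 7.14 in manganese, against 7.14, 7.38 and 7.10 in control. Its groups overlapped, with a difference of -0.03 (95% interval -0.30 to 0.23). TNFSF15, which encodes TL1A, and TNFSF10, which encodes TRAIL, also named outside the rule as ligands of members, lay below the 40th percentile on all arrays.

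Of the other receptors of the superfamily, 9 of 12 had positive differences, with a median of 0.07. TNFRSF9, which encodes 4-1BB, differed by 0.39 (limma adjusted p 0.333), TNFRSF19 by 0.19 (-0.00 against control 2) and TNFRSF13C, the BAFF receptor, by 0.15. Of the adaptors and death signalling genes, 14 of 21 were positive, with a median of 0.04. TRAF5 differed by -0.45 (adjusted p 0.339) and by -0.20 against control 2. RBCK1, a subunit of the linear ubiquitin ligase complex, differed by 0.39 and by 0.08 against control 2. MAP3K14, the kinase NIK of the non-canonical NF-kB pathway, differed by 0.29, with -0.52 at another of its probe sets. The groups did not overlap for these 3 of the 21, a smaller share than the 19.8% over all genes, and none passed.

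Among the 7 NF-kB components, NFKB1, which encodes the p105 precursor of p50, was at 6.52 ± 0.04 in manganese and 7.06 ± 0.31 in control (SD, n = 3 each). Its difference was -0.54 (limma adjusted p 0.278) and -0.37 against control 2. The kinase gene CHUK differed by -0.29 and RELB by 0.33. Of the 7 components 5 were positive and 2 negative. Of the 11 measured target genes of NF-kB, 7 were positive, with a median of 0.16 and -0.05 against control 2. IER3, an early response gene, differed by 0.53 (adjusted p 0.188), the inhibitor NFKBIA by 0.47 (0.267) and TNIP1, a partner of A20, by 0.58 (0.278). Against control 2 these were at 0.35, 0.20 and 0.23. The 4 measured regulators of death receptors were all positive at their brightest probe sets, with a median of 0.23 and 0.09 against control 2. ATF4 differed by 0.34 (adjusted p 0.304) and CDKN1A by 0.45, or 0.04 against control 2. TRIB3 differed by 0.13, or -0.12 against control 2, and DDIT3, which encodes CHOP and is named outside the rule beside its target TNFRSF10B, by 0.10.

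**Figure D4:**
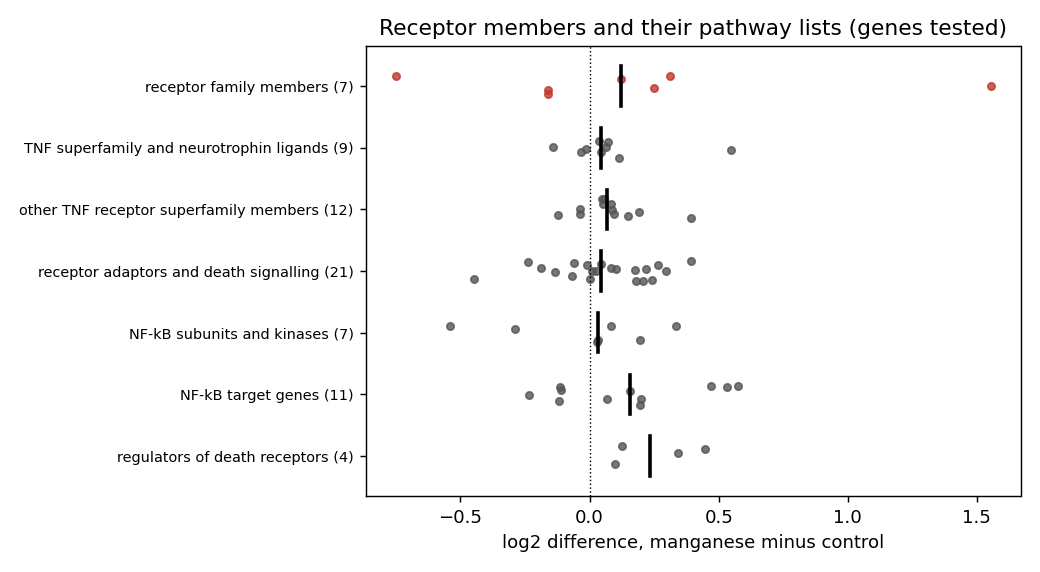
Log2 differences, manganese minus control, of the 7 tested receptor members (red) and the tested genes of the 6 pathway lists (grey), with the number of genes in brackets and the median of each list as a black bar. Points are spread vertically at random for legibility. The medians lie between 0.03 and 0.23, and TNFRSF12A at 1.55 is the furthest point from 0.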

How the data were processed

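Total RNA of 6 SH-SY5Y cultures (3 manganese, 3 control) was measured on Affymetrix arrays, labelled from 6 µg of RNA. The authors deposited log2 values for 49395 probe sets, and the submitters' processing notes name RMA and Affymetrix Expression Console. RMA sets all arrays to 1 distribution, so a shift shared by most genes is removed. No version or scan date is given in the sources used here. The labels call the arrays biological replicates and do not say whether cultures or arrays were handled together, so p-values measure the spread between these arrays. Arrays give no counting depth, and their number limits the precision.

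After 102 Affymetrix control probe sets were set aside, 44988 probe sets had 1 gene symbol, 1832 had several and 2473 stay unnamed. RefSeq (GRCh38.p14) held the Entrez number of 44961 of the 1-symbol probe sets, with 0 changes of symbol. Probe sets above the 40th percentile of their array on at least 3 arrays were kept (29871). The brightest 1-symbol probe set stood for each of 13407 genes. Genes, and separately probe sets, were fitted by limma (version 3.58.1, lmFit then eBayes, R 4.3.3) with group as the only term, with two-sided tests, Benjamini-Hochberg adjustment over the whole table and a threshold of 0.05. Intervals of probe sets too dim for the filter come from a fit on all probe sets. The script was tested on simulated data.

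The members, gene lists and alternatives were chosen with earlier results of these data known. Genes named are all members, the 3 of smallest p in each pathway list, and the 5 nearest to TNFRSF12A in profile. Genes outside this rule are marked where they appear. Of the listed pathway genes, those with no 1-symbol probe set are not analysed here. Promoter windows were matched by symbol, and 5 of the 10 members had an entry.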

Additional observations from a re-analysis of the deposited data

How the results depend on the processing

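Over 13 alternative settings, 80 of 90 values of single receptor genes kept their direction and their side of the threshold. TNFRSF12A stayed positive in all 13, at 1.06 to 1.80, and lost its call in 7, with adjusted p between 0.0018 and 0.299. TNFRSF25 stayed negative and uncalled in all 13, at -0.82 to -0.41, with adjusted p from 0.0548 to 0.537. Directions turned for TNFRSF21 log2 difference at 0.0486 without control 1 (leave-one-out range -0.303 to 0.0486), and for NGFR log2 difference at -0.0107 without control 1 (range -0.0107 to 0.202) and at -0.0377 against control 2 alone. TNFRSF10B and TNFRSF1A kept their sign in all 13 settings and LTBR in the 12 where it passed the filter. No filter, a 60th percentile filter, trend and robust variance, and median centring left all counts within 1.5 times, as did the mean of passing probe sets for genes and members.

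Leaving out each array gave 0 to 43 genes, 0 to 75 probe sets and 0 to 1 members called. The limma count was 0 genes without manganese 1, 2 or 3 or control 3, with 832 to 1223 at an unadjusted p under 0.05, and 43 without control 2. Against control 2 alone, where the spread of the single control is taken to be that of the manganese group, 5 genes, 7 probe sets and 0 members were called, with 3 members at an unadjusted p under 0.05. Deviations of same-numbered arrays correlated at -0.30, 0.15 and -0.27 across genes, and 0 manganese arrays correlated best with their own number. With 3 arrays per group, these correlations cannot settle whether same-numbered arrays were handled as pairs. With the replicate block 6 genes, 15 probe sets and 0 members were called, TNFRSF12A having a limma adjusted p of 0.0506. At an unadjusted p under 0.05 there were 2 of the 7 members tested and 1404 of the 13407 genes. The members were chosen on this contrast, so nothing is read from that count. Array weights could not be estimated for genes, since the estimate did not converge. For probe sets they gave 5364 calls at a weight of 5.16 for control 3 and 0.18 for control 1. The cause was not tested. Signals near background limit TNFRSF10A, TNFRSF10D and FAS, which entered the fit only without the filter and were not called there.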
